A study of Mus musculus with 2 samples.

Results

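Homeobox genes outside the Hox clusters that pattern the face, limbs, trunk and nervous system were followed in cultured mouse embryonic fibroblasts, connective tissue cells taken from embryos. The members are the genes whose symbols belong to 19 families (Lhx, the sine oculis family of Six2, Pitx, Emx, Meox, Dlx, Msx, Prrx, Alx, Irx, Pax, Shox, Nkx, Barx, En, Otx, Gsc, Pbx and Meis). The rule reads symbols and no values, though it was proposed with earlier results of these data known. The expression table listed 80 of them among its 24015 genes. Of these, 40 reached 1 RPKM (reads scaled to the length of the gene and the size of the library) in a library, 16 lay between 0 and that floor, and 24 were at 0 in both libraries. Over all 24015 genes, 13867 reached the floor and 17981 were above 0 in a library. Poly(A)+ RNA was sequenced from 1 culture labelled Adar2-/- (the library labelled KO) and 1 labelled Adar2+/+ (the library labelled WT), both grown in serum-supplemented medium. KO and WT below stand for the libraries so labelled. The sources used here do not give strain, sex, embryonic age, the part of the embryo taken or the deleted exon. With 1 library per genotype no difference has a replicate check, intervals cover counting error only, and culture, genotype and library preparation cannot be told apart.

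Homeodomain proteins bind DNA through a conserved helix-turn-helix fold and, in the embryo, mark where along an axis or in which bud or arch a cell arose. Fibroblasts keep much of such a positional code in culture. Pbx and Meis proteins, of the three-amino-acid-loop class, bind DNA together with Hox and other homeodomain proteins, LIM-homeodomain proteins (Lhx) work through the adaptor Ldb1, and the sine oculis proteins, such as Six2, work through Eya coactivators. Pax9 carries a paired domain with no homeodomain and Pax8 only part of one, so the symbol rule reaches slightly beyond homeobox genes in the strict sense.

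The 4 members read in 1 library and listed at 0 in the other lay at both ends of the comparison, and their promoters are shown because these genes were read in 1 library only. Each run is the 250 bases before the RefSeq start (build GRCm38.p6), on the gene's own strand. Capitals mark 4 motifs, searched on both strands: the letters CCAAT, the letters GGGCGG of a GC box, the letters TATAAA of the box named after them, and the letters TAATTA of a palindromic homeodomain core. Emx2 lies at chr19:59458440-59458689 on the plus strand, Lhx8 at chr3:154330561-154330810 on the minus strand, Meox2 at chr12:37108290-37108539 on the plus strand and Six2 at chr17:85688255-85688504 on the minus strand. The first 2 runs belong to genes read in the library labelled KO and the last 2 to genes read in the library labelled WT.
Emx2: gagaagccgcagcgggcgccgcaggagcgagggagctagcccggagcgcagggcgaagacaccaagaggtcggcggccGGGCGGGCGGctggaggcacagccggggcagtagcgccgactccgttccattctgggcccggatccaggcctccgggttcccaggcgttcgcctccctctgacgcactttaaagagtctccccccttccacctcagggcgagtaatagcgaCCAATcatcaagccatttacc
Lhx8: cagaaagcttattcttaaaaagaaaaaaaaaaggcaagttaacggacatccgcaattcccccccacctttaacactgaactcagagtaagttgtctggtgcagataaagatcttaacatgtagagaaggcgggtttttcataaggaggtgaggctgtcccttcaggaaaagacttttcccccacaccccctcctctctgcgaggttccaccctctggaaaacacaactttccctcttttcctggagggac
Meox2: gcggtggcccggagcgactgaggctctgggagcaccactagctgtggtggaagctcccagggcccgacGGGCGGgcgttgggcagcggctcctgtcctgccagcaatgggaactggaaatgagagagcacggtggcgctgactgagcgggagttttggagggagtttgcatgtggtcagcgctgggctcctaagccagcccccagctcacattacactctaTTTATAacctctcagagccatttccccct
Six2: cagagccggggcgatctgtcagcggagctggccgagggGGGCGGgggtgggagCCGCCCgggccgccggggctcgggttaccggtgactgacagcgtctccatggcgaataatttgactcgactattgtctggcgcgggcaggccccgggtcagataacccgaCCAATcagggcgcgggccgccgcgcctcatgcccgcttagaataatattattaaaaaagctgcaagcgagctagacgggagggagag

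The windows differed in CpG and motif content. Emx2 held 24 CpG and Six2 26, each with a CCAAT box (beginning 21 bases before the start in Emx2 and 87 in Six2) and 2 GC boxes, which overlap in Emx2 and lie on opposite strands in Six2. Meox2 held 12 CpG, 1 GC box and a TATA box, read on the opposite strand, that begins 29 bases before the start. Lhx8 held 4 CpG and none of the searched motifs. Over all 32851 RefSeq windows of this length, the median was 6 CpG, 33.8% held a CCAAT box, 32.7% a GC box, 12.4% a TATA box and 4.84% TAATTA. RefSeq windows were at hand for 29 of the 40 members above the floor (33 windows), with a median of 15 CpG. Of those 33, 16 held a CCAAT box, 19 a GC box, 4 a TATA box and 2 TAATTA (in Msx2 and Prrx1).

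The targeted gene was read first. Adarb1, which encodes ADAR2, had 25.8 RPKM (1633 reads) in the library labelled KO and 18.4 RPKM (1155 reads) in the library labelled WT. The transcript was thus higher, not lower, in the library labelled KO. Since these reads span the gene, they do not test a deletion of part of it, and every direction below rests on the labels. The deposited lists of edited sites, a readout of ADAR activity, held 110 sites in the library labelled KO and 654 in the library labelled WT. Depth was 9546997 reads in the library labelled KO and 9446911 in the library labelled WT, and the highest gene stood at 124 RPKM in KO and 107 RPKM in WT, a ceiling that can compress differences between abundant genes. Of 13 fibroblast markers 12 reached the floor, with a summed level of 529 RPKM in KO and 549 RPKM in WT. Among them the surface glycoprotein gene Thy1 (72.1 RPKM in KO and 9.40 RPKM in WT) was at least 2-fold higher and the proteoglycan gene Dcn (12.3 RPKM in KO and 29.7 RPKM in WT) at least 2-fold lower in the library labelled KO, with Col1a1 (57.1 RPKM in KO and 49.98 RPKM in WT) and Twist2 (31.9 RPKM in KO and 53.8 RPKM in WT) next to them. The muscle regulators Myod1, Myf5 and Myog were at 0 in both libraries. Of 10 markers of neural cells, 5 were at 0 in both (Rbfox3, Snap25, Elavl4, Olig2, Sox10), Gfap had 4 reads in KO and 2 reads in WT, and Nes, Map2, Tubb3 and Stmn2 reached the floor with the values given beside the LIM genes.

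Over the 40 members, log2 ratios were spread more widely than over all genes above the floor, with no common direction. Both sets include genes above the floor in 1 library only, and the median absolute ratio was not taken without them. Log2 ratios are log2((KO + 1)/(WT + 1)) of RPKM, which understates the difference of low genes, and a member is called apart at 2-fold on that scale. Of the 40 members, 5 (12.5%) stood 2-fold or more higher in the library labelled KO, beside 4.42% of the 13867 genes above the same floor. At least 2-fold lower were 6 (15%), beside 7.46% of genes. The median log2 ratio was -0.07 over the members and 0.01 over all genes, and the median absolute log2 ratio was 0.44 over the members and 0.21 over all genes. Members that reach the floor in 1 library only are bound to lean one way: 3 did so in the library labelled KO (Dlx4, Emx2, Lhx8) and 5 in the library labelled WT (Dlx3, Meox2, Nkx3-2, Pax8, Six2). The floor was reached in both libraries by 32 of the 40 members and by 12557 of the 13867 genes. Among the 32 above it in both, 3 were at least 2-fold higher, 2 at least 2-fold lower and 27 in between, beside 2.3% higher and 4.06% lower of the 12557 genes above it in both. In bulk RNA, fewer cells of a kind and less RNA per cell cannot be told apart.

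**Figure D1:**
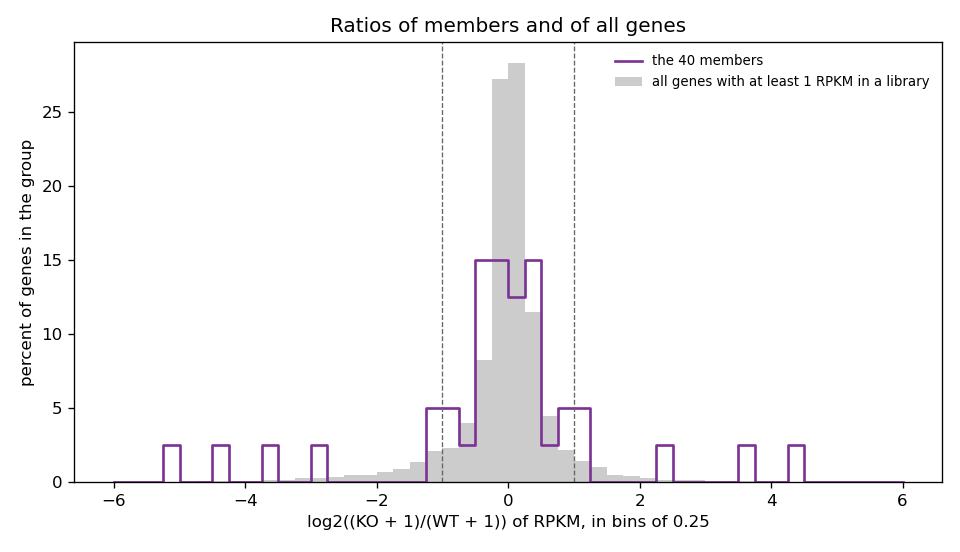
Share of genes (percent, y axis) by log2((KO + 1)/(WT + 1)) of RPKM (x axis, bins of 0.25) for all 13867 genes above 1 RPKM in a library (grey bars) and the 40 members (purple line); dashed lines mark 2-fold. The members' median absolute log2 ratio is 0.44 against 0.21 for all genes, with single members out to 4.45 and -5.23. Both sets include genes above 1 RPKM in 1 library only, which form a larger part of the members than of all genes.

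Near the 2-fold threshold, Meis1 (1.01) and Meox1 (1.15) lay just inside on the higher side and Dlx4 (0.85) just outside. On the lower side Pax8 (-1.16) lay just inside, and Dlx3 (-0.92) and Dlx5 (-0.86) just outside. At the floor of 1 RPKM, Dlx4 (1.32 RPKM in the library labelled KO) was the lowest member kept and Dlx6 (0.782 RPKM in KO and 0.395 RPKM in WT) the highest left out. The levels of the kept members ran from 0 to 62.4 RPKM in both libraries, with a median of 14.5 in the library labelled KO and 13.9 in the library labelled WT.

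**Figure D2:**
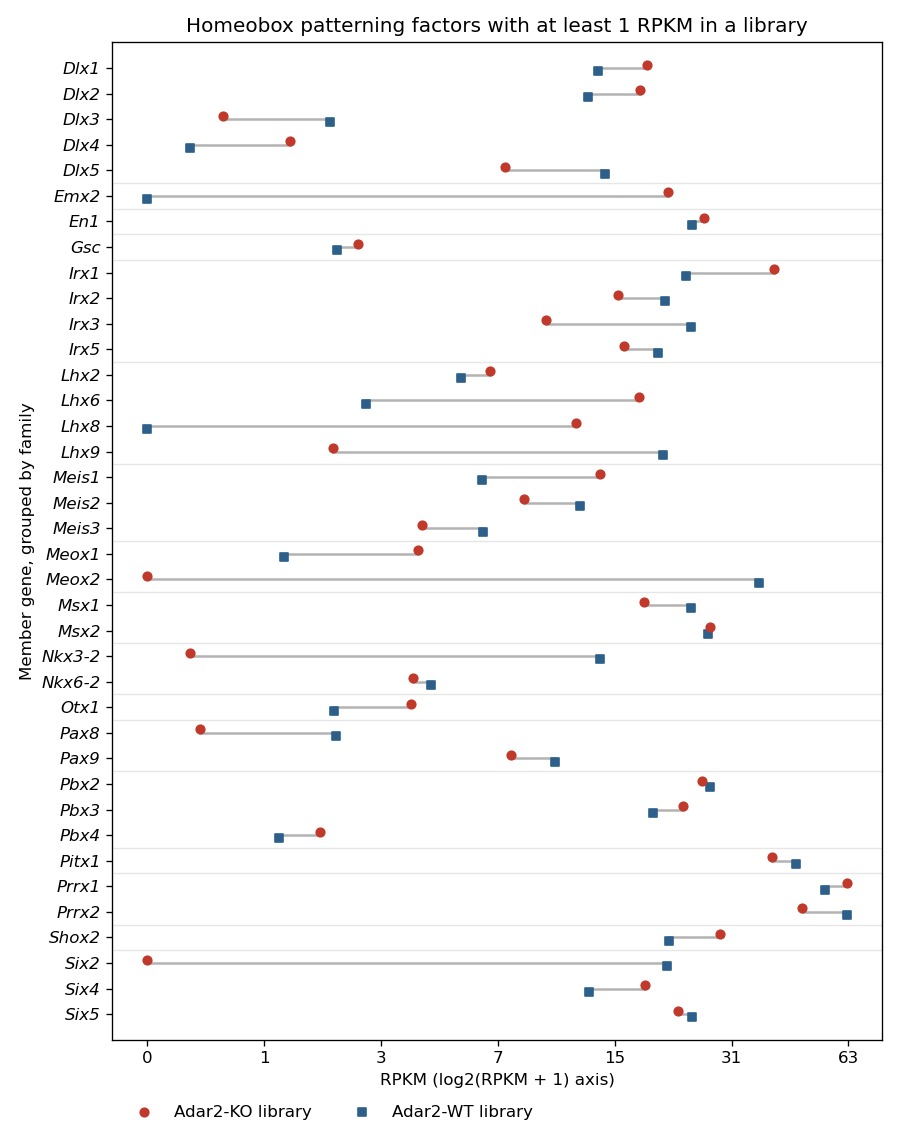
RPKM (x axis, log2(RPKM + 1) spacing) of 38 of the 40 members above the floor of 1 RPKM, grouped by family (y axis), in the library labelled Adar2-KO (red circles) and the library labelled Adar2-WT (blue squares), 1 library each. A grey line joins the values of each member. Among the longest are those of Emx2 and Lhx8, at 0 in the library labelled Adar2-WT, and Meox2 and Six2, at 0 in the library labelled Adar2-KO. That of Nkx3-2 (0.292 RPKM in KO and 13.6 RPKM in WT) is also long, with neither value at 0.

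The LIM-homeodomain genes differed in both directions. Lhx6 and Lhx8, paralogs that act together in the mesenchyme of the first pharyngeal arch and in forebrain neurons, were both higher in the library labelled KO. Lhx8 had 11.7 RPKM (221 reads) there and no read in the library labelled WT. Against a floor of 3 reads in the library at 0, it was at least 72.9-fold higher. Lhx6 had 17.5 RPKM (596 reads) in the library labelled KO and 2.66 RPKM (90 reads) in the library labelled WT, a 6.55-fold ratio of reads per total (exact 95% counting interval 5.24 to 8.27). Lhx9, needed for the gonad and expressed in limb mesenchyme, went the other way, with 2.0 RPKM (110 reads) in the library labelled KO and 20.3 RPKM (1102 reads) in the library labelled WT, a log2 ratio of reads of -3.34 (-3.64 to -3.06). Lhx2, its closest paralog, was within counting error, at 6.61 RPKM in KO and 5.44 RPKM in WT (log2 ratio of reads 0.28, interval -0.04 to 0.61). The family sum was 37.9 RPKM in the library labelled KO, of which Lhx6 gave 46.0%, and 28.6 RPKM in the library labelled WT, of which Lhx9 gave 71.0%. Lhx1, Lhx3, Lhx4 and Lhx5 stayed under the floor.

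The other LIM genes in the lists followed no single direction either. Lmo1, encoding a LIM-only protein that binds Ldb1, was listed at 0 in the library labelled KO and at 12.8 RPKM (129 reads) in the library labelled WT. Lmx1b, the LIM-homeobox gene of dorsal limb mesenchyme, had 2.92 RPKM (34 reads) in KO and 20.1 RPKM (231 reads) in WT, and Isl2, a LIM-homeobox gene known from motor neurons, 3.90 RPKM (69 reads) in KO and 0.114 RPKM (2 reads) in WT. Ldb1 itself was close, at 55.1 RPKM in the library labelled KO and 45.1 RPKM in the library labelled WT. Lmo4, another LIM-only gene, was also close (41.7 RPKM in KO and 48.3 RPKM in WT). Lmo2, Lmo3, Isl1 and Lmx1a stayed under the floor. Of the neural markers, 5 of 10 were at 0 in both libraries, and their summed level was 113 RPKM in the library labelled KO and 106 RPKM in the library labelled WT. Nes (38.4 RPKM in KO and 14.3 RPKM in WT) was at least 2-fold higher and Map2 (15.8 RPKM in KO and 32.7 RPKM in WT) at least 2-fold lower. Stmn2 (42.7 RPKM in KO and 38.6 RPKM in WT) and Tubb3 (15.7 RPKM in KO and 20.1 RPKM in WT) were close. Their part in the Lhx values was not tested.

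Emx2, which patterns the cerebral cortex, the urogenital tract and the shoulder blade, had the highest log2 ratio of all members, at 4.45. It had 20.9 RPKM (519 reads) in the library labelled KO and no read in the library labelled WT, at least 171-fold higher against a floor of 3 reads. Its paralog Emx1 was at 0 in both. The antisense transcript Emx2os followed, with 3.36 RPKM (161 reads) in KO and 0.021 RPKM (1 read) in WT. Use of strand in the counting is not given in the sources used here, so reads of a gene and its antisense partner cannot be told apart. Otx1, another forebrain gene of the list, had 3.78 RPKM in KO and 2.02 RPKM in WT (102 reads in KO and 54 reads in WT; log2 ratio of reads 0.90, interval 0.41 to 1.41), while Otx2 was at 0 in both.

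The Meox genes differed in opposite directions. Meox2, a somite and limb muscle factor also called growth-arrest-specific homeobox, had no read in the library labelled KO and 36.7 RPKM (813 reads) in the library labelled WT, at least 274-fold lower against 3 reads. Meox1, its partner in the somite, had 3.98 RPKM (84 reads) in the library labelled KO and 1.25 RPKM (26 reads) in the library labelled WT, a 3.20-fold ratio of reads (2.04 to 5.17). The pair summed to 3.98 RPKM in KO and 37.9 RPKM in WT, so Meox1 in KO lay far below the level of Meox2 in the library labelled WT. The muscle markers summed to 7.74 RPKM in KO and 10.5 RPKM in WT, nearly all from the actin gene Acta1 (7.40 RPKM in KO and 9.64 RPKM in WT).

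Six2, the factor that holds kidney progenitors in their undifferentiated state and is also used in facial mesenchyme, was the other member with no read in the library labelled KO. It had 20.8 RPKM (414 reads) in the library labelled WT, at least 139-fold lower in KO against 3 reads. Six5, the neighbour of the myotonic dystrophy kinase gene, had 22.2 RPKM in KO and 24.3 RPKM in WT (log2 ratio of reads -0.13, interval -0.29 to 0.03), and its relative Six4 18.2 RPKM (968 reads) in KO and 12.7 RPKM (670 reads) in WT, a log2 ratio of reads of 0.52 (0.37 to 0.66). Six3 and Six6, eye and forebrain factors, were at 0 in both. The coactivator Eya1 had 8.44 RPKM (350 reads) in KO and 25.3 RPKM (1039 reads) in WT, whereas Eya4 (34.1 RPKM in KO and 37.9 RPKM in WT) and Eya3 (18.7 RPKM in KO and 17.2 RPKM in WT) were close.

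Most of the Nkx family was at 0 in these fibroblasts. Of 14 listed Nkx genes 10 were at 0 in the library labelled KO and 10 in the library labelled WT, and only Nkx3-2 and Nkx6-2 reached the floor. Nkx3-2, a repressor that acts in the cartilage of the spine and jaw joint, had 0.292 RPKM (4 reads) in the library labelled KO and 13.6 RPKM (185 reads) in the library labelled WT, a log2 ratio of reads of -5.55 (-7.44 to -4.17). Nkx6-2, known from the spinal cord and its oligodendrocytes, was within counting error at 3.84 RPKM (70 reads) in KO and 4.39 RPKM (79 reads) in WT. The gene Inpp5a overlaps Nkx6-2 on the opposite strand (17.3 RPKM in KO and 20.3 RPKM in WT). With strand use unknown, reads of Nkx6-2 and Inpp5a cannot be told apart where they overlap. The cartilage marker Col2a1 was lower beside Nkx3-2 (0.571 RPKM in KO and 48.0 RPKM in WT), and the marker list summed to 18.7 RPKM in the library labelled KO and 67.0 RPKM in the library labelled WT. Sox9 (14.5 RPKM in KO and 12.8 RPKM in WT) was close and Col11a2 (1.59 RPKM, 85 reads, in KO and 0.699 RPKM, 37 reads, in WT) was higher by less than 2-fold, while Acan (0.071 RPKM in KO and 0.029 RPKM in WT) and Col9a1 (0.152 RPKM in KO and 0 RPKM in WT) stayed under the floor and Matn1 was at 0 in both. Of 4 compared cartilage markers 2, Col2a1 and Comp (1.90 RPKM in KO and 5.45 RPKM in WT), were at least 2-fold lower, beside 7.46% of all compared genes. Their part in the Nkx3-2 value was not tested.

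**Figure D3:**
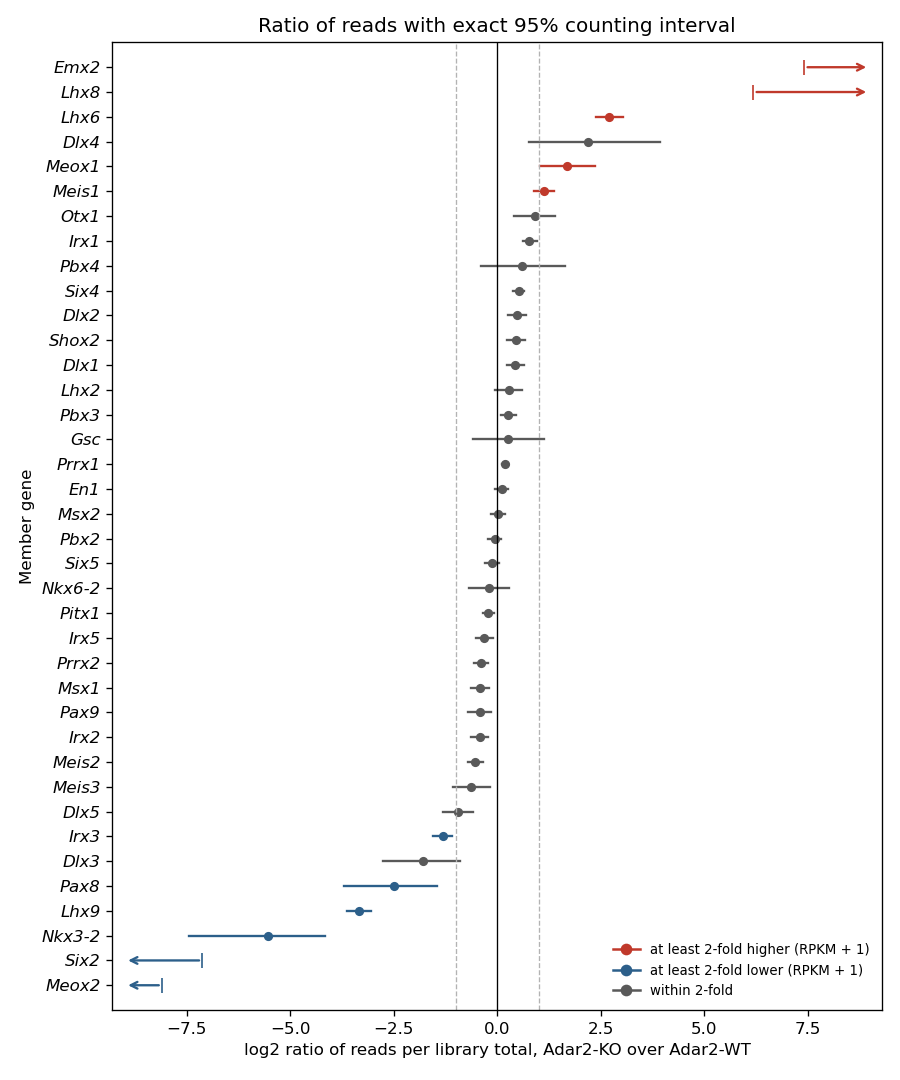
Log2 ratio of reads per library total, Adar2-KO over Adar2-WT (x axis), for 38 of the 40 members (y axis), with exact 95% counting intervals as bars; for the 4 members at 0 in a library an arrow starts at the bound given by 3 reads. Red and blue mark members at least 2-fold higher or lower on the RPKM + 1 scale, such as Lhx6 at 2.71 and Lhx9 at -3.34, and dashed lines mark 2-fold.

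Pax genes were low apart from Pax9. Pax9, a tooth, palate and skeletal factor, had 7.65 RPKM (188 reads) in the library labelled KO and 10.2 RPKM (249 reads) in the library labelled WT (log2 ratio of reads -0.42, interval -0.70 to -0.14). Pax8, the thyroid and kidney factor, had 0.367 RPKM (9 reads) in KO and 2.06 RPKM (50 reads) in WT, a log2 ratio of reads of -2.49 (-3.70 to -1.45) that rests on few reads. The neural crest and muscle regulator Pax3 had 9 reads in the library labelled KO and 0 in the library labelled WT, the eye regulator Pax6 13 reads in KO and 3 reads in WT, and the muscle stem cell factor Pax7 none in either.

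Iroquois (Irx) genes, which lie in paralogous clusters, were read from both clusters and differed in opposite directions in 1 of them. Irx1 had 40.1 RPKM (790 reads) in the library labelled KO and 23.4 RPKM (455 reads) in the library labelled WT, a log2 ratio of reads of 0.78 (0.61 to 0.95). Its cluster neighbour Irx2 had 15.3 RPKM (359 reads) in KO and 20.5 RPKM (477 reads) in WT, a log2 ratio of reads of -0.43 (-0.63 to -0.22), and Irx4, the heart ventricle gene of that cluster, was at 0 in both. In the other cluster Irx3, a limb and neural tube gene, had 9.66 RPKM (218 reads) in KO and 24.1 RPKM (538 reads) in WT, a log2 ratio of reads of -1.32 (-1.55 to -1.09), while Irx5 had 15.9 RPKM in KO and 19.6 RPKM in WT (-0.31, interval -0.51 to -0.11) and Irx6 was at 0. As a family they summed to 80.9 RPKM in KO and 87.6 RPKM in WT. Irx1 thus held 49.6% of the family in the library labelled KO, and no Irx gene held more than 27.5% (Irx3) in the library labelled WT.

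Dlx genes lie in linked pairs and set the identity of parts of the pharyngeal arches; Dlx1 and Dlx2 shared a direction, and Dlx3 and Dlx4 did not. Dlx1 had 18.4 RPKM (487 reads) in the library labelled KO and 13.5 RPKM (355 reads) in the library labelled WT, and its neighbour Dlx2 had 17.5 RPKM (414 reads) in KO and 12.6 RPKM (295 reads) in WT. Their log2 ratios of reads were 0.44 (0.24 to 0.64) and 0.47 (0.25 to 0.69). The antisense transcript Dlx1as stood at 8.89 RPKM in KO and 6.41 RPKM in WT, again with strand unknown. Dlx5, a bone and lower jaw factor, had 7.35 RPKM (99 reads) in KO and 14.1 RPKM (188 reads) in WT, a log2 ratio of reads of -0.94 (-1.31 to -0.58), with its neighbour Dlx6 under the floor at 8 reads in KO and 4 reads in WT. Dlx3, of hair, tooth and placenta, had 14 reads in the library labelled KO and 48 in the library labelled WT, and its neighbour Dlx4 23 reads in KO and 5 reads in WT. On the RPKM + 1 scale neither of that low pair reached 2-fold, but by reads Dlx3 had a log2 ratio of -1.79 (-2.77 to -0.91) and Dlx4 one of 2.19 (0.76 to 3.94).

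**Figure D4:**
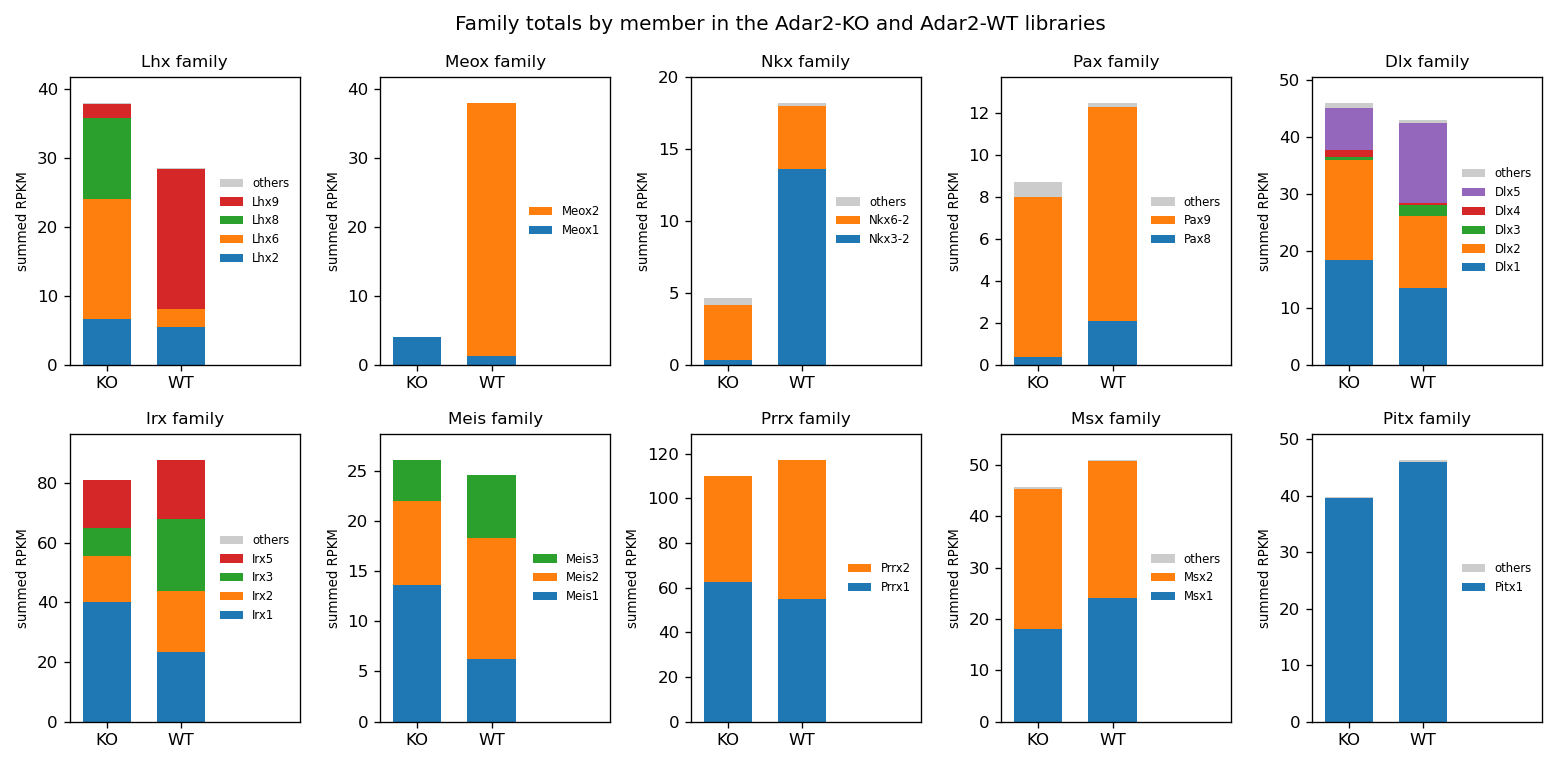
Summed RPKM (y axis) of 10 families in the libraries labelled Adar2-KO (left bar) and Adar2-WT (right bar), 1 library each, stacked by member, with members under 1 RPKM in both libraries pooled as others. Totals are close in the Meis (26.1 in KO, 24.6 in WT) and Dlx (45.9 in KO, 42.9 in WT) families, while Meox (3.98 in KO, 37.9 in WT) and Nkx (4.63 in KO, 18.2 in WT) are lower in the library labelled Adar2-KO.

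Among the Hox cofactor genes, the Meis family had a different leading gene in each library. Meis1 had 13.6 RPKM (448 reads) in the library labelled KO and 6.28 RPKM (204 reads) in the library labelled WT, a log2 ratio of reads of 1.12 (0.88 to 1.37). Meis2 had 8.35 RPKM (420 reads) in KO and 12.0 RPKM (598 reads) in WT, a log2 ratio of reads of -0.52 (-0.71 to -0.34) and Meis3 4.10 RPKM (72 reads) in KO and 6.33 RPKM (110 reads) in WT, a log2 ratio of reads of -0.63 (-1.08 to -0.18). Meis1 was therefore the leading Meis gene in the library labelled KO and Meis2 in WT. Pbx2 (25.9 RPKM in KO and 27.1 RPKM in WT) was within counting error. Pbx3 had 23.0 RPKM in KO and 19.0 RPKM in WT (0.27, interval 0.10 to 0.44), and Pbx4, known mainly from testis, 1.79 RPKM in KO and 1.18 RPKM in WT with 23 reads in KO and 15 reads in WT. Of the related genes outside the rule, Pknox2 stood at 18.5 RPKM (626 reads) in KO and 8.14 RPKM (273 reads) in WT, and Tgif1 (37.2 RPKM in KO and 37.6 RPKM in WT) was close.

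Prrx1, Prrx2 and Pitx1, factors of limb and face mesenchyme, were the most abundant members in WT, and all were within 2-fold. Prrx1, a marker of limb bud mesenchyme, had 62.4 RPKM in the library labelled KO and 54.8 RPKM in the library labelled WT, and Prrx2 47.7 RPKM in KO and 62.4 RPKM in WT. Their log2 ratios of reads were 0.19 (0.13 to 0.25) and -0.39 (-0.56 to -0.22), that of Prrx1 over the smallest of several possible read pairs, so the order of the pair turned over. Pitx1, the hindlimb identity factor, was present in both, at 39.6 RPKM (926 reads) in KO and 46.0 RPKM (1064 reads) in WT, a log2 ratio of reads of -0.22 (-0.34 to -0.09). Its paralog Pitx3 had at most 2 reads in a library. Shox2, a factor of the proximal limb, had 28.8 RPKM (438 reads) in KO and 21.1 RPKM (317 reads) in WT, a log2 ratio of reads of 0.45 (0.24 to 0.66). Rsrc1, overlapping Shox2 on the opposite strand, had 28.0 RPKM in KO and 22.3 RPKM in WT, again with strand unknown.

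Msx2 and En1 were within counting error. Msx2, a skull and limb factor responsive to bone morphogenetic protein (BMP), had 27.2 RPKM in KO and 26.7 RPKM in WT (0.03, interval -0.15 to 0.20), and its paralog Msx1 18.1 RPKM in KO and 24.1 RPKM in WT (-0.42, interval -0.63 to -0.21). En1, a midbrain and ventral limb factor that also marks a dermal fibroblast lineage, had 26.2 RPKM in KO and 24.3 RPKM in WT (0.11, interval -0.06 to 0.27). The organizer and jaw gene Gsc was low, at 2.50 RPKM in KO and 2.07 RPKM in WT with 28 reads in KO and 23 reads in WT. Among families without a member at the floor, the facial mesenchyme genes Alx1 and Alx4 had at most 5 reads in a library, and the tooth and stomach gene Barx1 and its paralog Barx2 were at 0 in both.

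Genes beside the members were mostly within 2-fold, as were 88.1% of all genes above the floor. For each of the 11 members at least 2-fold apart, the nearest protein-coding genes of the table on either side (RefSeq order, GRCm38.p6) gave 22 neighbours, of which 17 reached the floor. None of those 17 was at least 2-fold higher in the library labelled KO and 1 was at least 2-fold lower, beside 4.42% and 7.46% of all genes. That neighbour was Cacna1b, a calcium channel gene next to Pax8, at 0.375 RPKM (35 reads) in KO and 4.71 RPKM (435 reads) in WT. Around Emx2, Pdzd8 (40.9 RPKM in KO and 32.1 RPKM in WT) and Rab11fip2 (18.4 RPKM in KO and 11.7 RPKM in WT) were both higher by less than 2-fold. Around Meox2, Sostdc1 was at 0 in both libraries and Agmo had 0 reads in KO and 1 read in WT, while the neighbours of Six2 were Six3, at 0 in both, and Srbd1 (1046 reads in KO and 959 in WT). These neighbours, which include the members Irx5 and Six3, were chosen after the member values were seen.

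**Figure D5:**
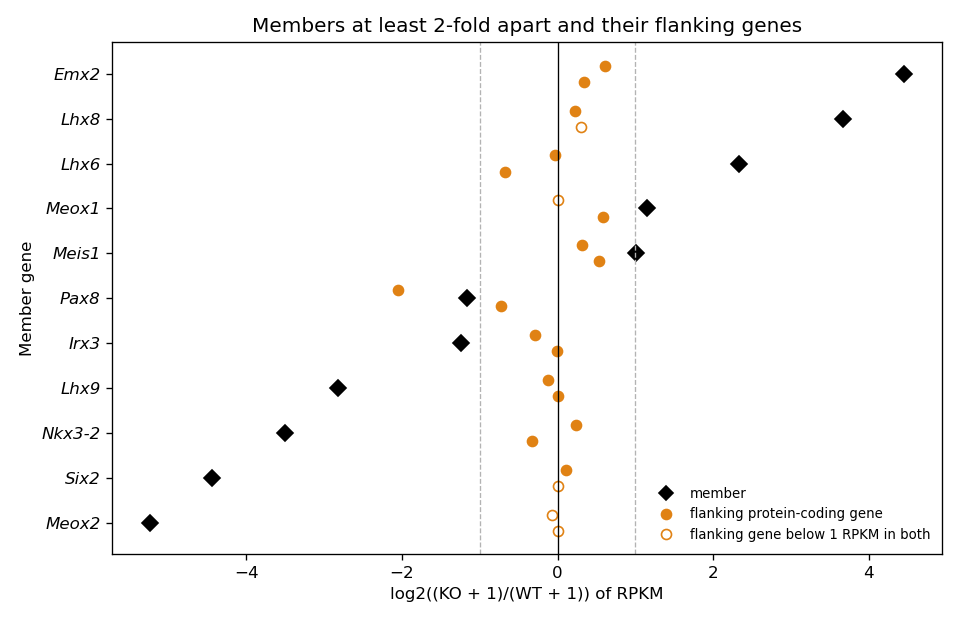
Log2((KO + 1)/(WT + 1)) of RPKM (x axis) of the 11 members at least 2-fold apart (black diamonds, y axis) and of the nearest protein-coding gene of the table on each side (orange circles, open where below 1 RPKM in both libraries). The members run from -5.23 (Meox2) to 4.45 (Emx2), and of the 17 neighbours above the floor only Cacna1b, beside Pax8, passes the dashed 2-fold lines.

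Partner genes and limb signals held a few large differences in both directions, beside medians near 0. Of 22 compared cofactor and partner genes, 2 were at least 2-fold higher (Pknox2, and Dach2 with 89 reads in KO and 0 reads in WT) and 3 at least 2-fold lower (Eya1, Lmo1 and the corepressor gene Tle1, at 4.53 RPKM in KO and 11.1 RPKM in WT), beside 4.42% higher and 7.46% lower of all compared genes, with a median log2 ratio of 0.09. Tle6 (33.6 RPKM in KO and 22.2 RPKM in WT) had the next highest log2 ratio above 10 RPKM. Of 22 limb and face signalling genes, 3 were higher and 3 lower, beside the same 4.42% and 7.46% of all genes, with a median of -0.08. Higher were the limb transcription factor gene Tbx3 (13.1 RPKM, 603 reads, in KO and 0.503 RPKM, 23 reads, in WT), Hand2 (72 reads in KO and 0 reads in WT), a factor of the posterior limb and ventral arches, and the endothelin receptor gene Ednra (2.82 RPKM in KO and 0.029 RPKM in WT). Lower were Wnt5a (12.5 RPKM, 523 reads, in KO and 31.7 RPKM, 1309 reads, in WT), Bmp2 (0.147 RPKM in KO and 3.21 RPKM in WT) and the BMP antagonist gene Chrd (2.66 RPKM in KO and 8.46 RPKM in WT). The sonic hedgehog effector gene Gli2 (21.3 RPKM in KO and 13.2 RPKM in WT) and the limb and somite gene Tbx18 (26.5 RPKM in KO and 39.1 RPKM in WT) were next at either end among genes above 10 RPKM.

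Homeobox genes outside the rule gave 30 compared genes, of which 6 were 2-fold or more higher in the library labelled KO and 2 were lower by as much, beside 4.42% and 7.46% of all genes, with a median log2 ratio of -0.01. Lower were Lmx1b and the lymphoid factor gene Pou2f2 (0.213 RPKM in KO and 6.41 RPKM in WT). Higher were Isl2, Hhex (7.27 RPKM in KO and 0.538 RPKM in WT), a liver and blood factor, Pou3f1 (3.79 RPKM in KO and 0.317 RPKM in WT), Tlx2 (2.85 RPKM in KO and 0.221 RPKM in WT), Nanog (3.08 RPKM in KO and 0.850 RPKM in WT), whose near-identical pseudogenes can share its reads, and Hmx2, with 16 reads in KO and 0 reads in WT. Each of those 6 had under 10 RPKM in both libraries. Above 10 RPKM, Pou6f1 (24.3 RPKM in KO and 15.7 RPKM in WT) and Pou2f1 (10.7 RPKM in KO and 7.83 RPKM in WT) had the highest log2 ratios, and the tendon factor gene Mkx (24.8 RPKM in KO and 39.3 RPKM in WT) had the lowest after Lmx1b.

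Markers of bone, epithelium, endothelium and blood were also read, and their part in the member values was not tested. Bone markers summed to 96.4 RPKM in the library labelled KO and 110 RPKM in the library labelled WT, with the osteoblast genes Sp7 (0.046 RPKM in KO and 2.13 RPKM in WT) and Alpl (0.386 RPKM in KO and 1.88 RPKM in WT) at least 2-fold lower and Runx2 (27.0 RPKM in KO and 28.5 RPKM in WT) and Spp1 (68.4 RPKM in KO and 76.7 RPKM in WT) close. Epithelial markers summed to 1.79 RPKM in KO and 2.41 RPKM in WT, endothelial markers to 0.409 RPKM in KO and 4.0 RPKM in WT, and blood markers to 35.2 RPKM in KO and 32.6 RPKM in WT, the last mostly from Cd14 (23.7 RPKM in KO and 19.7 RPKM in WT), while the pan-leukocyte gene Ptprc had 0 RPKM in KO and 0.075 RPKM in WT. At least 2-fold lower in the library labelled KO were Cdh1, Tek and Csf1r, each under 2.5 RPKM in both libraries. Over all compared genes 7.46% were at least 2-fold lower. Krt8, the other compared epithelial marker, was higher by less than 2-fold on the RPKM + 1 scale (18 reads in KO and 1 read in WT), and Krt5 stayed under the floor (7 reads in KO and 0 reads in WT).

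Adenosine-to-inosine editing, the reaction ADAR2 carries out, had no listed site in any member. Of the 110 sites listed in KO and the 654 in WT, 0 lay in one of the 80 members. Of the 13867 compared genes 1.38% had a listed site. A gene missing from the lists is not thereby shown to be unedited.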

How the data were processed

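Members and gene lists were chosen with earlier results of these data known. RPKM values, 1 column per library, come from a table deposited by the authors whose columns, per the file headers, are those the tool GFOLD writes. It also holds their log2 fold change and generalized log2 fold change (GFOLD) and an empirical FDR, a p-value-like column deposited at 1 in every row and not used. STAR 2.4.0d, SAMtools and the mm9 build are named in the submitters' processing notes. The sources used here give no annotation, counting rule or strand use. The editing lists deposited by the authors give read counts per site and the editing level as a fraction.

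The authors' log2 fold change equals that of reads plus 1, up to 1 constant. With the RPKM values it gave the library totals, and 1 pair of whole read numbers for 87.6% of genes above 0; for the rest the smallest pair was used. Intervals are exact (Clopper-Pearson, 95%, conditional on the sum), tested on simulated data. Log2 ratios use a pseudocount of 1 RPKM and a floor of 1 RPKM in either library. With 1 library per genotype no p-value was computed. All members at that floor are named, apart from a few members of the rule that are counted but not reported here, and from each list the 2 highest and 2 lowest log2 ratios at 10 RPKM; other genes were named after their values were seen. Overlapping transcripts (GENCODE M21) were in the table for Dlx1, Emx2, Nkx6-2, Pax9, Pbx2 and Shox2, whose reads can be shared with them. Python 3.11.15, pandas 2.3.3 and scipy 1.17.1 were used.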

Additional observations from a re-analysis of the deposited data

How the results depend on the processing

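The 5 members at least 2-fold higher and the 6 at least 2-fold lower were 4 to 6 and 5 to 7 under another pseudocount, floor or scaling, or by recovered reads, while the share of all genes ran from 3.01% to 6.0% higher and from 5.62% to 9.4% lower. By the GFOLD value of the authors' deposited table, a different measure, they were 3 and 4 (3.21% and 5.6% of all genes). GFOLD was 0 for Lhx2 (log2 ratio 0.24) and 6.32 for Emx2 (log2 ratio 4.45). By GFOLD, Meis1, Meox1, Irx3 and Pax8 fell inside 2-fold, and the cause was not tested. Meis1 also fell inside (log2 ratio 0.99) when KO values were divided by the median ratio of 1.01. Dlx3 and Dlx4 came to be at least 2-fold apart with a pseudocount of 0.1 RPKM (-1.63 and 1.87) or by reads plus 1 (-1.72 and 1.98). The members' median log2 ratio lay between -0.08 and 0.00. No called member changed sign under any setting. With a floor of 5 RPKM, 1 of 21 cofactor and partner genes was at least 2-fold higher, against 2 of 22. For limb and face signalling genes it was 1 of 17, against 3 of 22. For other homeobox genes it was 1 of 22, against 6 of 30. Over all genes above that floor the share was 3.01%. The higher genes that dropped out had under 5 RPKM in both libraries. No paired analysis was possible because each genotype has 1 library. Few reads made wide counting intervals, as for Dlx4 (0.76 to 3.94, from 23 reads in KO and 5 in WT) and Gsc (-0.58 to 1.13, from 28 reads in KO and 23 in WT).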
